A study of Homo sapiens with 19 samples.

Results

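The ERRα binding sites of BT-474 cells treated with EGF were compared with those of the same cells treated with vehicle. BT-474 is an established human breast cancer cell line in which ERBB2 (HER2), a partner of the EGF receptor, is amplified. Both groups were starved of serum for 24 h, then 1 received EGF for 90 min, at 100 uM as the labels give it, and the other PBS, the vehicle. This dose is high for EGF, and its unit could not be checked. Each group gave 1 ERRα ChIP-seq library, and both libraries were called against the input of the vehicle-treated cells, so that no spread between cultures was measured and no difference was tested. The series holds 19 sequenced libraries and 8 peak lists, and the other 6 lists (BT-474 cells on HRG, a ligand of ERBB3 and ERBB4, SKBr3 cells starved and treated with vehicle, EGF or HRG, untreated parental pSKBr3 cells, and lapatinib-resistant LRSKBr3 cells under 2 uM lapatinib) serve only for reference. A peak of the EGF list without an overlapping vehicle peak was termed gained, a vehicle peak without an overlapping EGF peak was termed lost, and peaks that overlapped by at least 1 bp were termed kept. Merging both lists gave 38495 sites, out of 90452 sites in all lists of the series.

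ERRα, encoded by ESRRA, is an orphan nuclear receptor, which acts without a known natural hormone and binds DNA as a monomer or dimer at the ERR response element (ERRE), an extended version of the core site of nuclear receptors. Together with coactivators of the PGC-1 family it controls genes of mitochondrial respiration and the tricarboxylic acid (TCA) cycle. EGF binds the EGF receptor, which pairs with ERBB2 and signals through the MAP kinase and PI3 kinase pathways, and AP-1 (FOS and JUN proteins) is a classical nuclear end point of this signalling.

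The strongest sites of each class that carry the ERRE word TCAAGGTCA within 100 bp of the peak centre are given to show the element that ERRα binds. Each sequence is given 5′ to 3′ on the strand of the word, which is in capitals, with its GRCh37 position.
Gained, intergenic, nearest gene FBXO33, chr14:40945354-40945414, minus strand: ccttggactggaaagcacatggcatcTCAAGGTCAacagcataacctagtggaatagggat
Gained, intergenic, nearest gene ZSWIM6, chr5:60848682-60848742, plus strand: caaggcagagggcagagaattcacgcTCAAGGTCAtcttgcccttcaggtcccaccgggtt
Kept, intergenic, nearest gene GADL1, chr3:30946457-30946517, minus strand: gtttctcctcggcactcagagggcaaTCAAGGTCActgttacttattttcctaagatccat
Kept, intergenic, nearest gene LY86, chr6:6748932-6748992, plus strand: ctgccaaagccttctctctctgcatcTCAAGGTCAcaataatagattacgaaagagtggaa
Kept, upstream of ESRRA itself, chr11:64072324-64072384, minus strand: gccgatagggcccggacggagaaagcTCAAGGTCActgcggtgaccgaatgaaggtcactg
Lost, intergenic, nearest gene LRRN3, chr7:110040646-110040706, minus strand: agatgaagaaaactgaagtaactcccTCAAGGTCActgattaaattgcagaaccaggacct
Lost, intergenic, nearest gene ZNRF4, chr19:5487356-5487416, plus strand: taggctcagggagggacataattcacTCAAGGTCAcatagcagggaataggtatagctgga
A score, which is −10 log10 P of the peak caller MACS and depends on the depth of a library, came with each peak, and was 358 and 205 for the gained peaks in the EGF list. The kept peaks near GADL1 and LY86 scored 3148 and 3131 in the vehicle list, and the lost peaks near LRRN3 and ZNRF4 scored 410 and 401.

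Most gained peaks had no such word and lay in AT-rich sequence. The central 100 bp of a pair of the strongest gained peaks with a GC content below 35% are given as examples, without capitals because neither window holds an ERRE.
Gained, intron of USP32, chr17:58423759-58423858, plus strand: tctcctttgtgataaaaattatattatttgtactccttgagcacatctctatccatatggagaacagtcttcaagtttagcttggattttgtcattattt
Gained, intergenic, nearest gene CTNND2, chr5:11961634-11961733, plus strand: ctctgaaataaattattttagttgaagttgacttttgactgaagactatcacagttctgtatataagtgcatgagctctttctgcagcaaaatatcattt
Both stretches have a GC content of 31%. Their peaks scored 673 and 439 in the EGF list, and the HRG list of the same cells called both.

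Of the 38495 sites, 20167 were kept (52.4%, interval 51.9–52.9%), 12047 were lost (31.3%, interval 30.8–31.8%) and 6281 were gained (16.3%, interval 16.0–16.7%). Intervals are 95% Wilson intervals and cover counting error only. The lists hold no tag counts, so the depth of the libraries is unknown, and a difference in depth or enrichment between the libraries cannot be told apart from a difference in binding. The gained peaks covered 12.5 Mb of the genome and the lost peaks 24.6 Mb. Without the weakest peaks of both lists (score 100 or more), 1510 peaks were gained and 8530 lost. With the vehicle list reduced to its 26832 strongest peaks, the number in the EGF list, 7434 peaks were gained and 7784 lost. In lists of equal length both numbers are nearly equal by construction, apart from peaks that split or joined.

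Gained and lost sites were mostly weak sites of their own list. The median score was 64.1 for gained peaks against 169 for kept peaks of the EGF list, and 84.4 for lost peaks against 318 for kept peaks of the vehicle list. A score below 100 was found for 87.2% of the gained and 61.7% of the lost peaks, against 29.6% and 13.3% of the kept peaks of the same lists. In the weakest quintile of the EGF list 57.9% of the peaks were gained (interval 56.6–59.2%), and in the strongest quintile 0.354% (19 of 5366 peaks). The vehicle list ran from 77.4% lost peaks in its weakest quintile (interval 76.3–78.4%) to 0.248% in its strongest (16 of 6452 peaks). Gained peaks were also narrower, with a median of 1564 bp against 1851 bp for kept EGF peaks. Lost peaks had a median width of 1813 bp against 2142 bp for kept vehicle peaks.

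**Figure D1:**
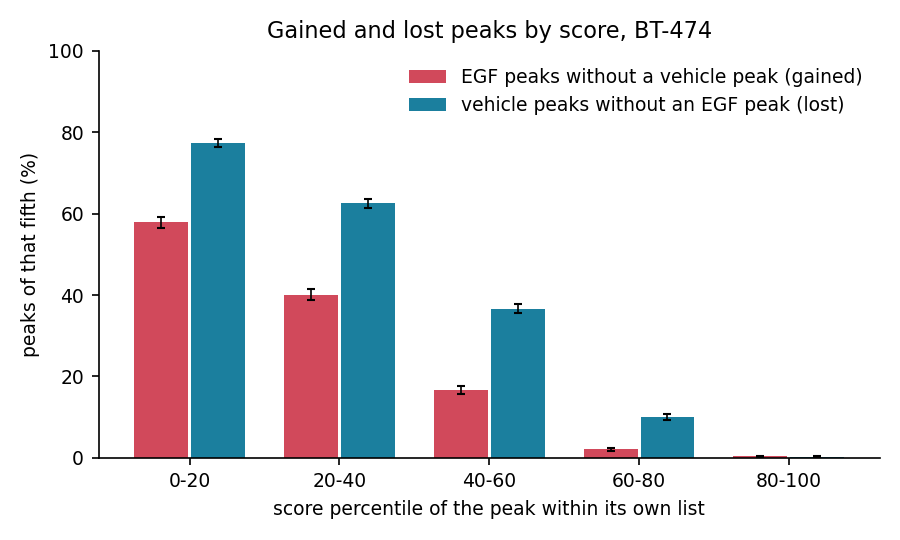
Share of peaks that were gained (of EGF peaks) or lost (of vehicle peaks) on the y axis in %, by quintiles of the score percentile within each list on the x axis, with 95% Wilson intervals as error bars. Both shares fall from the weakest quintile (57.9% and 77.4%) to 0.354% and 0.248% in the strongest quintile.

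Few gained or lost sites lay beside a site of the other list. The nearest vehicle peak was a median of 35061 bp from a gained peak, and 8.10% of gained peaks had one within 5 kb. From a lost peak the nearest EGF peak was a median of 25852 bp away, with 12.2% within 5 kb. Calling peaks up to 1 kb apart shared left 6069 gained and 11498 lost peaks.

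Gained sites were far from gene starts, and lost sites were the richest in promoters. A promoter, here the region within 1 kb of the start of a protein-coding gene, held the centre of 87 gained peaks (1.39%, interval 1.12–1.71%) and of 1464 lost peaks (12.2%, interval 11.6–12.7%). Kept peaks stood between them, with 8.12% of the vehicle peaks (interval 7.76–8.51%) and 7.85% of the EGF peaks. Intergenic positions held 58.2% of the gained peaks against 44.1% of the lost and 46.2% of the kept peaks. Introns held 38.6% of the gained and 41.9% of the lost peaks. Exons outside promoters were rare in each class, with coding exons at 0.669% and untranslated exons at 1.21% of the gained peaks.

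**Figure D2:**
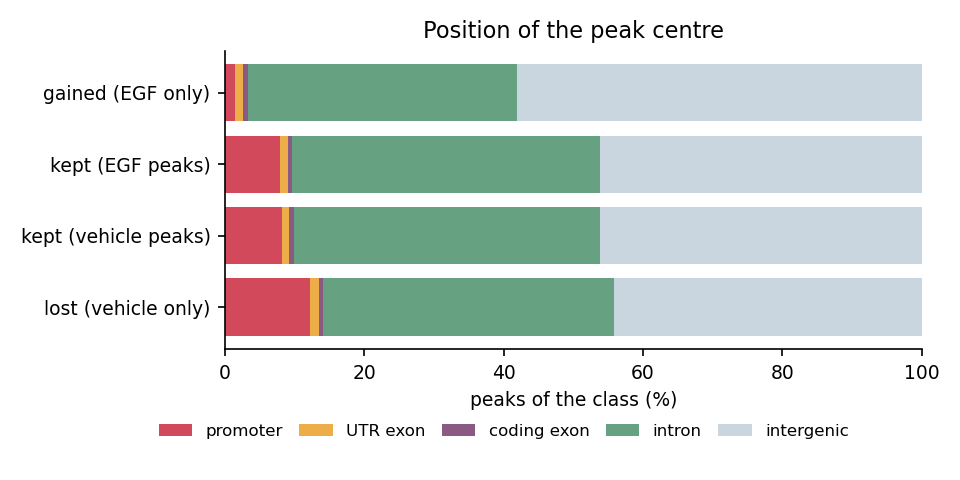
Position of the peak centre in the 4 peak sets, as a share of the peaks of each set on the x axis in %. Promoters take 1.39% of gained peaks, 8.12% of kept vehicle peaks and 12.2% of lost peaks, and intergenic positions take 58.2% of gained peaks.

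The distance to a start showed the same order. The median distance to the nearest start was 87804 bp for gained peaks, 35552 bp for kept EGF peaks, 35730 bp for kept vehicle peaks and 31435 bp for lost peaks. The gained share of EGF peaks rose with this distance, from 5.11% within 1 kb (interval 4.17–6.27%) through 19.9% at 20 to 50 kb to 37.6% beyond 200 kb (interval 36.3–38.9%). The lost share of vehicle peaks was 47.1% within 1 kb (interval 45.4–48.9%) and lay between 35.1% and 37.3% at every larger distance. Loss was thus more frequent at promoters and otherwise nearly even.

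Gained sites also differed from the others in base composition. The mean GC content of the 200 bp at the peak centre was 34.4% ± 7.33 (SD over 6281 peaks) for gained peaks, 42.1% ± 8.67 for kept EGF peaks, 42.4% ± 8.93 for kept vehicle peaks and 43.2% ± 9.81 for lost peaks. The peaks are not replicates, and the SD describes the spread among peaks. The reads were not examined, so a difference between the libraries in GC content was not tested. Such a difference cannot be told apart here from a difference in binding. The ranks of the kept sites also shifted with GC content, as given below. A GC content below 35% was found in 56.7% of gained peaks and in 20.1% of kept EGF, 19.8% of kept vehicle and 20.2% of lost peaks. The gained share of EGF peaks fell at every step of GC content, from 59.98% below 30% GC (1749 of 2916 peaks) through 22.7% at 35 to 40% GC to 1.95% at 60% GC and above (14 of 719 peaks). The lost share changed little, from 39.4% below 30% GC through 35.2% at 40 to 45%, and was highest at 60% and above, with 49.1% (interval 46.7–51.6%).

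**Figure D3:**
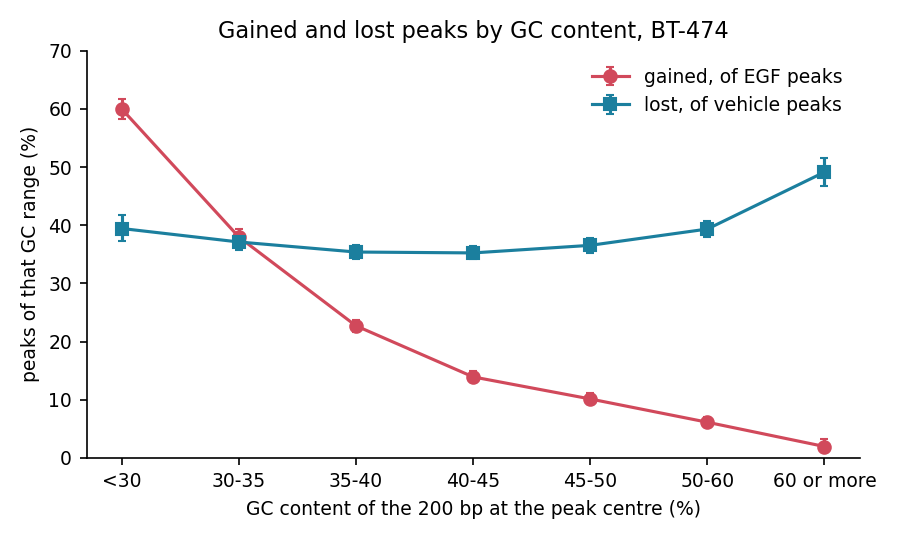
Share of EGF peaks that were gained and of vehicle peaks that were lost, on the y axis in %, by the GC content of the central 200 bp on the x axis, with 95% Wilson intervals. The gained share falls from 59.98% to 1.95%, while the lost share stays between 35.2% and 49.1%.

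The low GC content was partly local. Around gained peaks the mean GC content was 38.5% in flanks 2 kb to each side of the centre and 38.7% over 50 kb. The difference of centre minus flanks was −4.10 percentage points for gained peaks, −0.24 for kept vehicle peaks and 0.21 for lost peaks, whose flanks had 42.7% and 43.0%. Centres with a CpG ratio over 0.6 (observed over expected, a mark of CpG islands) made up 0.462% of the gained, 4.62% of the kept vehicle and 7.94% of the lost peaks. Without promoter peaks the mean was 34.3% for gained, 41.6% for kept vehicle and 41.8% for lost peaks, so the gained sites stayed apart while the lost sites moved to the level of the kept ones.

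**Figure D4:**
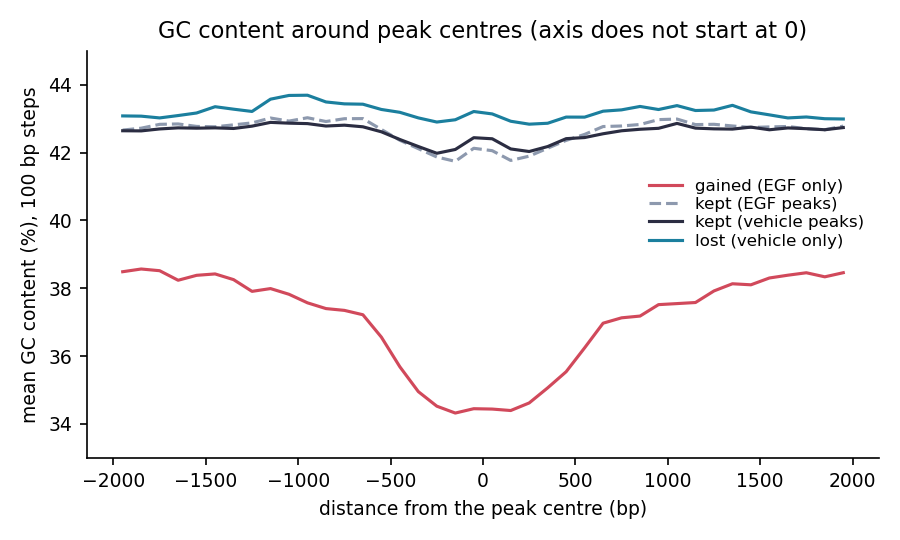
Mean GC content in % (y axis, not from 0) in steps of 100 bp up to 2 kb from the peak centre (x axis) for gained, kept and lost peaks. The gained peaks dip from 38.5% in the flanks to 34.4% at the centre, while the other curves lie higher and stay nearly level.

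The difference in GC content was also present among peaks of like score. In the weakest quintile of the EGF list the mean was 34.4% for gained and 41.9% for kept peaks, and in the middle quintile 34.7% and 41.6%. The 19 gained peaks of the strongest quintile differed from the others, with a mean of 46.7% against 43.2% for the kept peaks of that quintile. Among vehicle peaks of the fourth quintile, lost peaks had a mean of 47.4% against 42.9% for kept peaks, and 21.5% of them lay at promoters against 9.11%. Strong lost sites were thus more often promoter sites than weak lost sites, of which 9.96% lay at promoters in the weakest quintile.

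The genome-wide distribution followed the same gradient in broad terms, though not chromosome by chromosome. By chromosome, leaving out Y with 1 vehicle peak, the gained share ran from 8.50% on chromosome 19 and 8.86% on chromosome 22, which are rich in GC and genes, to 31.8% on chromosome 7 and 33.6% on chromosome 8. The lost share ran only from 34.7% on chromosome 18 to 42.4% on chromosome 19. Over 247 stretches of 5 Mb with at least 50 peaks in both lists, the gained share had a median of 19.3% and a range of 1.61% to 54.1%, and the lost share a median of 35.6% and a range of 20.6% to 48.9%. Across these stretches the Spearman correlation with the GC content was −0.75 for the gained and 0.14 for the lost share. These values are descriptive, because the stretches come from the same libraries.

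Gained sites fell in the bodies of 1830 genes and lost sites in those of 4229 genes. Of these, 52 genes held 5 or more gained peaks, with a median length of 1038 kb, and 143 genes held 5 or more lost peaks, with a median length of 465 kb, against 26.98 kb for all protein-coding genes. Long genes offer more room for peaks of either class. CSMD3 held 21 gained peaks (and 5 kept and 2 lost ones), CDH18, a cadherin, held 13, MACROD2 held 12, and the neuronal adhesion genes CNTNAP2 and LRRC4C held 10 each. CNTNAP2 also held 19 kept and 12 lost peaks, whereas LRRC4C held 3 of each.

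The ERRE was found in each class above its flanks. The word TCAAGGTCA, sought on both strands in the central 200 bp, was present in 7.27% of kept vehicle peaks (interval 6.92–7.63%), 7.32% of kept EGF peaks, 4.91% of lost peaks (interval 4.54–5.31%) and 3.39% of gained peaks (interval 2.97–3.87%). In flanking windows of equal width the shares were 0.284%, 0.302%, 0.274% and 0.279%, so that centres held it 25.5, 24.3, 17.9 and 12.2 times as often. For comparison, the central 200 bp around the starts of all protein-coding genes held it in 0.147%. The shorter core site AAGGTCA, which the ERRE contains, was present in 24.2% of kept vehicle, 17.2% of lost and 11.4% of gained peaks. A lower ERRE share in gained than in kept peaks was also seen within ranges of GC content, with 1.09% against 4.54% below 30% GC and 5.47% against 8.61% at 40 to 45% GC. The same order held within score, with 2.99% against 6.95% in the weakest quintile of the EGF list.

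The AP-1 word TGACTCA was not more frequent at gained sites. It was present in 4.78% of gained (interval 4.28–5.33%), 6.80% of kept EGF, 6.25% of kept vehicle and 5.35% of lost peaks, against 2.99% to 3.18% in the flanks. Below 30% GC the share was 2.52% of gained and 2.91% of kept EGF peaks, at 30 to 35% 4.47% and 5.20%, and at 35 to 40% 4.89% and 6.70%. At 40 to 45% GC it was 7.74% of gained and 7.53% of kept EGF peaks, and at 45 to 50% 8.22% and 8.27%. At 50 to 60% GC it was 8.37% and 7.71%, and at 60% and above, with 14 gained peaks, 14.3% and 4.96%. The word is held by 2.51% of the windows around all starts. The forkhead word TGTTTAC, an element of FOXA1-type factors, was present in 5.51% of gained, 7.09% of kept vehicle and 6.95% of lost peaks, with 2.94% to 3.49% in the flanks. The AP-2 word GCCNNNGGC was present in 1.78% of gained peaks, below their flanks (2.13%), and in 6.71% of lost peaks, above theirs (3.84%). The ETS word CCGGAAG, frequent at promoters, was held by 1.42% of lost, 0.866% of kept vehicle and 0.271% of gained peaks. The grainyhead word AACCGGTT was found in 0 of 6281 gained peaks, with an upper limit of 0.0611%, and in 0.161% of kept EGF peaks.

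The kept sites were narrower and had lower scores in the EGF list. Of the 20167 kept sites, 19780 (98.1%) joined 1 vehicle peak to 1 EGF peak, 344 split on EGF and 26 joined on EGF. Among the one-to-one sites, the median width was 2131 bp on vehicle and 1848 bp on EGF, and 88.3% were narrower on EGF. The score was lower on EGF at 81.6%. Scores and widths follow depth, so no change in binding is read from these values, nor from the scores of single peaks that are set side by side below. The Spearman correlation of the scores was 0.82 over these sites.

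The order of the kept sites differed between the lists with GC content. For this, the one-to-one sites were ranked by score in each list over the same 19780 sites, so that the mean shift in percentile is 0 by construction. The median shift from vehicle to EGF was 3.94 percentile points for sites below 30% GC, 0.42 at 40 to 45% and −6.43 at 60% and above, falling at each step between. The quartiles over all these sites were −8.64 and 9.19. Whether this shift reflects binding or the GC content of the libraries was not tested. A rise of over 30 points was found at 908 sites, with a mean GC content of 38.5% and 3.85% at promoters. A fall of over 30 points was found at 1006 sites, with a mean GC content of 46.5% and 15.2% at promoters. The other one-to-one sites had 42.3% and 7.90%.

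The HRG library of the same cells called many of these sites. It held 95.04% of the kept vehicle peaks, 57.6% of the lost peaks (interval 56.7–58.5%) and 31.6% of the gained peaks (interval 30.5–32.8%). The 1986 gained peaks that HRG shared had a mean GC content of 37.1%, an ERRE share of 6.24% (interval 5.26–7.39%) and an AP-1 share of 7.91% (interval 6.80–9.17%). The 4295 gained peaks that it did not share had 33.2%, 2.07% (interval 1.69–2.54%) and 3.33% (interval 2.83–3.91%). A peak of SKBr3 vehicle or EGF cells was present at 34.8% of the shared and 8.57% of the unshared gained peaks. Lost peaks that HRG shared held the ERRE in 5.87% and AP-1 in 7.004%. Those absent on HRG held them in 3.62% and 3.09% and lay at promoters in 15.5%, against 9.66%. All 3 BT-474 lists share the input library.

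The same measures were taken for HRG in BT-474 cells and for EGF in SKBr3 cells, and HRG in SKBr3 cells was not compared here. The mean GC content of gained minus lost peaks was −8.73 percentage points for EGF in BT-474, −6.33 for HRG in BT-474 and 2.26 for EGF in SKBr3 cells. The AP-1 word was held by 4.78%, 8.52% and 21.9% of the gained peaks in that order. The comparisons on BT-474 share the vehicle list, and the SKBr3 lists pool 2 ChIP libraries each, so that the values stand side by side and were not tested.

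The strongest gained sites were unlike the class as a whole. The first, chr20:56035404-56046076, was intergenic, 29682 bp from the start of HMGB1P1, and had a score of 3100, at which many strong peaks of the list tie. The next lay at the promoter of PLXDC1, which encodes a transmembrane receptor of tumour endothelium (chr17:37307959-37314367), also with a score of 3100. Within 500 kb of each of these peaks there were 0 vehicle peaks, 1 EGF peak, which is the peak itself, and 1 HRG peak. A gained peak at the promoter of UCP2, which encodes a mitochondrial carrier protein, lay 276 bp from its start with a score of 1463. It was called in the SKBr3 vehicle, SKBr3 EGF and BT-474 HRG lists too. A gained intronic peak on chromosome X scored 1107, and its nearest start, 48244 bp away, was that of AMELX, which encodes a protein of tooth enamel.

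Of the 20 strongest gained peaks, 12 lay on chromosomes 11, 17 and 20, which hold 7.40% of all gained peaks. The peaks had a mean GC content of 45.7%, and 0 of them held an ERRE. The HRG list called 16 and the SKBr3 vehicle or EGF lists 14 of them. Leaving out these chromosomes gave 5816 gained and 10866 lost peaks. Copy number was not measured in these files and its part in the calls was not tested.

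The highest score of a lost peak was 989, percentile 88.1 of the vehicle list, in an intron near MRRF, which encodes the mitochondrial ribosome recycling factor (chr9:125022706-125028957). The next was a peak of 12164 bp with a score of 812, 26780 bp from the start of FOXA1, the pioneer factor of luminal breast cells (chr14:38031593-38043756). A lost peak at the promoter of SCAF11, a splicing-related gene, scored 805, and lost peaks near FBXO32, a ubiquitin ligase subunit, and H2BC17, a histone gene, scored 761 and 744. Of the 20 strongest lost peaks, 18 were called on HRG and 12 in SKBr3 vehicle or EGF cells.

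The 5 kept sites with the highest sum of score percentiles in both lists had scores of 3100 on vehicle and 3215 to 3233 on EGF. They lay in introns near GPC3, FAM151B, ATP8B1 and GPR160 and between genes near TESPA1. Of these 5 sites, the one near FAM151B held an ERRE in both lists, and the HRG list called all 5.

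Genes were then sorted by the peaks within 20 kb of a start. Of 19794 protein-coding genes, 6964 had peaks of both lists (35.2%), 608 had EGF peaks only (3.07%) and 2750 had vehicle peaks only (13.9%). A kept peak within 1 kb of a start was found for 1787 genes (9.03%), any lost peak within 20 kb for 5453 genes (27.5%) and any gained peak for 1534 genes (7.75%). Most lists described below had any lost peak more often than all genes, with 47.4% of the genes of ERRs and coregulators, 40.2% of the cytosolic ribosome, 39.5% of integrins and laminins, 38.5% of the mitochondrial ribosome, 37.1% of glutathione metabolism and 33.3% of the TCA cycle. The intervals of the lists of ERRs (27.3–68.3%), integrins and laminins (25.6–55.3%), glutathione metabolism (23.2–53.7%) and the TCA cycle (18.6–52.2%) hold the share of all genes. Those of the cytosolic (30.3–51.1%) and mitochondrial ribosome (28.4–49.6%) lie above it. The share was 27.8% of other receptor tyrosine kinases, 27.4% of oxidative phosphorylation and 8.46% of olfactory receptors. The share of each gene list below is read against these values for all genes. No list was tested, and the genes of a list can share a peak.

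**Figure D5:**
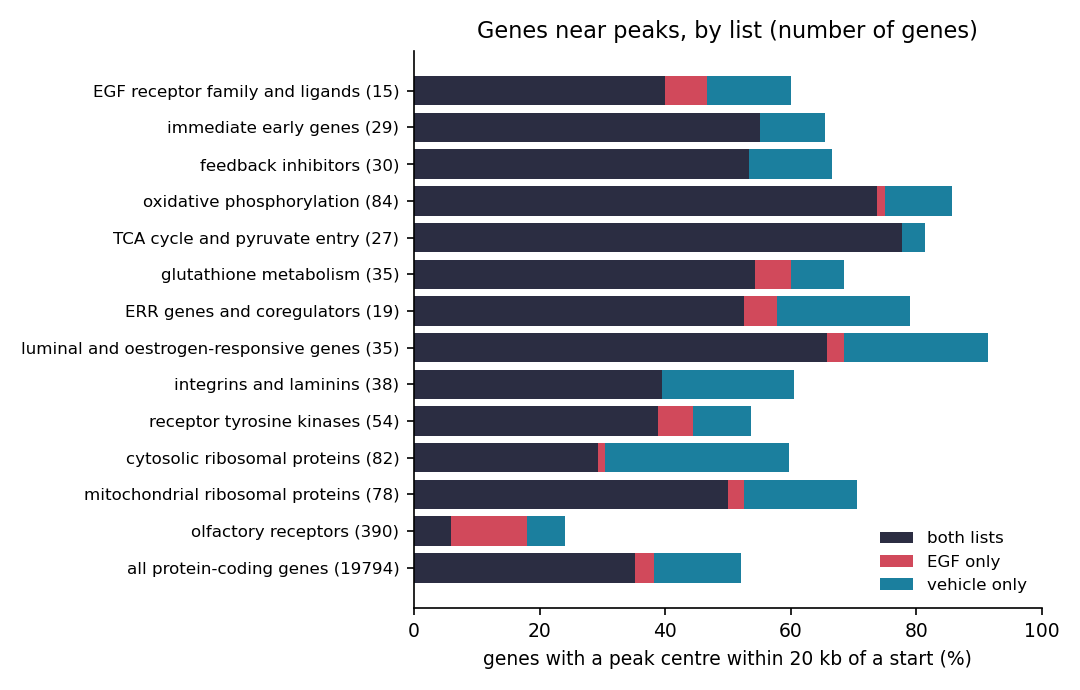
Share of the genes of each list (number of genes in brackets) with a peak centre within 20 kb of a start in both lists, on EGF only or on vehicle only, on the x axis in %. Genes of oxidative phosphorylation (73.8%) and the TCA cycle (77.8%) have the highest shares in both lists, against 35.2% of all genes, and olfactory receptors the highest share on EGF only (12.1% against 3.07%).

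Genes of mitochondrial respiration kept ERRα at their promoters. Of 84 genes of oxidative phosphorylation, 62 had peaks of both lists (73.8%, interval 63.5–82.0%), 9 on vehicle only and 1 on EGF only, and 58 had a kept promoter peak (69.0%). SDHD, a subunit of succinate dehydrogenase, had scores of 3212 on vehicle and 1790 on EGF at its promoter. The ATP synthase subunit genes ATP5F1B and ATP5MC3 had 3100 in both lists, and ATP5F1A had 3100 on vehicle and 2785 on EGF. Promoter peaks of ATP5PB (325) and ATP5MK (171) were lost. NDUFA2 and NDUFB11, subunits of complex I, had a lost peak within range but 17108 bp and 15075 bp from their own starts. The gene with EGF peaks only was ATP5MC1, with a gained peak of score 80.9 in an intron 1046 bp from a start.

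Genes of the TCA cycle also often had peaks of both lists. Of 27 genes of the cycle and of pyruvate entry, 21 had peaks of both lists (77.8%, interval 59.2–89.4%), 1 had vehicle peaks only and 0 had EGF peaks only, and 14 had a kept promoter peak. The promoter of CS, citrate synthase, scored 3100 on vehicle and 3139 on EGF, and that of IDH3A, a subunit of isocitrate dehydrogenase, 3100 and 3131. MDH2, the mitochondrial malate dehydrogenase, had 1275 and 301. The gene with vehicle peaks only was DLD, the shared subunit of the pyruvate and oxoglutarate dehydrogenases, with a promoter peak of score 193.

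Glutathione metabolism, which detoxifies reactive oxygen, had 19 of 35 genes with peaks of both lists, 3 on vehicle only and 2 on EGF only. The promoters of MGST3, GSTM4 and GSTK1, glutathione transferases, were kept with vehicle scores of 2196, 2146 and 1562 and EGF scores of 834, 828 and 537. The genes on vehicle only were OPLAH, GGT1 and GPX1, of which OPLAH had the highest score (439). The lost peak of GPX1 (79.2) lay 18855 bp from its start, at the promoter of another gene. The genes on EGF only were GPX8 (130) and GSTA1 (59.0, 15496 bp from its start).

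The regulators of this programme were mixed. Of 19 genes of ERRs and their coregulators, 10 had peaks of both lists, 4 on vehicle only and 1 on EGF only. The ESRRA promoter had a score of 3100 in both lists, with peaks of chr11:64070021-64074711 on vehicle and chr11:64071061-64074420 on EGF, and the ERRE shown above lay inside both. The genes on vehicle only were NCOA1 (225) and NCOR1 (68.4), nuclear receptor coregulators, TFAM (107), a mitochondrial transcription factor, and NRF1 (82.7), a regulator of nuclear genes for mitochondria. TFB2M, another mitochondrial transcription factor, was on EGF only, with a gained peak of 946 that lay 16908 bp from its start and closer to CNST.

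Among the genes of EGF signalling, the immediate early genes had the highest share with any lost peak. Their share on vehicle only (10.3%) was not above that of all genes (13.9%). Of 29 immediate early genes, the first genes that growth factors switch on, 16 had any lost peak (55.2%, interval 37.5–71.6%) and 2 any gained peak, against 27.5% and 7.75% of all genes. Of 30 feedback inhibitors of the pathway, 12 had any lost peak (40%, interval 24.6–57.7%) and 4 any gained peak (13.3%, interval 5.31–29.7%). Of 15 genes of the EGF receptor family and its ligands, 6 had any lost peak (40%, interval 19.8–64.3%) and 4 any gained peak (26.7%, interval 10.9–51.95%). The intervals of the lost shares of these 2 lists hold the share of all genes. For gained peaks, the interval of the EGF receptor family lies above the 7.75% of all genes. Those of the luminal list (8.10–32.7%) and of the olfactory receptors (10.5–17.3%) do so too. The intervals take genes as independent and cover counting error only, and no list was tested. Genes with peaks of 1 list only were fewer. Of 15 genes of the EGF receptor family and its ligands, 6 had peaks of both lists, 2 on vehicle only and 1 on EGF only. The strongest peak in range of EGFR was a weak lost peak (score 71.1) 17682 bp from a start. NRG2, a neuregulin, had a lost peak of 176 with an ERRE, and EPGN, which encodes epigen, a gained promoter peak of 79.3. ERBB2 had no peak in range in either list. Of the 29 immediate early genes, 16 had peaks of both lists (55.2%, against 35.2% of all genes), 3 on vehicle only and 0 on EGF only. The genes on vehicle only were EGR2, EGR3 and IER2, with lost peaks of 140, 56.7 and 55.0. These peaks lay 12153, 19266 and 10872 bp from the starts of these genes. Of the 30 feedback inhibitors, 16 had peaks of both lists, 4 on vehicle only (CBLB, SPRED1, DUSP10 and SOCS3, scores 52.1 to 80.1) and 0 on EGF only. With 29 and 30 genes, these counts of 0 allow shares of up to 11.7% and 11.4%, so a share equal to that of all genes would not be told apart.

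The absence of called peaks at ERBB2 extended over the 17q12 region around it. A region without calls is no measure of absent binding, and the input there was not assessed. The 20 genes of the 17q12 amplicon list lie on chromosome 17 from 37408916 to 38217468, 809 kb in all. The BT-474 lists of vehicle, EGF and HRG and the SKBr3 lists of vehicle, EGF and HRG each held 0 peaks there, as did the list of the parental pSKBr3 cells, and the LRSKBr3 list, of resistant cells under lapatinib, held 3. The strong gained peak at PLXDC1 given above (chr17:37307959-37314367) lies on the same chromosome just outside this region.

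Other receptor and adhesion genes more often had vehicle peaks only than EGF peaks only, as did all genes. Of 54 receptor tyrosine kinases outside the EGF receptor family, 21 had peaks of both lists, 5 on vehicle only and 3 on EGF only. Those on vehicle only included INSR, the insulin receptor, with a promoter peak of score 230, INSRR (108), STYK1 (75.5) and ALK (52.8). Those on EGF only were RYK (136), EPHA7 (65.3) and EPHA6 (50.3). Of 38 integrins and laminins, 15 had peaks of both lists, 8 on vehicle only and 0 on EGF only, the strongest of the 8 being ITGA10 (148), LAMC3 (79.6), ITGA11 (75.5) and LAMA2 (73.3).

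Luminal genes were widely bound in both lists and also often had lost peaks. Of 35 luminal and oestrogen-responsive genes, 23 had peaks of both lists (65.7%, interval 49.2–79.2%), 8 on vehicle only and 1 on EGF only. Any lost peak was found for 23 of the 35 genes (65.7%) and any gained peak for 6, against 27.5% and 7.75% of all genes. The promoter of TFF1, a classical oestrogen target, scored 1041 on vehicle and 543 on EGF and held the core site. KRT8, a luminal keratin gene, had a kept peak 8266 bp from its start with 3100 in both lists and an ERRE. Kept peaks scored 574 on vehicle and 276 on EGF at KRT19, 143 and 154 at ESR1, the oestrogen receptor, and 127 and 51.7 at GATA3. At KRT18 the strongest peaks of the lists were different kept sites, at 1156 on vehicle and 692 on EGF. At FOXA1 the strongest peak within range was a kept peak of 1580 on vehicle and a gained peak of 216 on EGF, which lies beside the strong lost peak near FOXA1 given above without overlapping it. Of the markers of these cells, ERBB2 and GRB7 were without a peak, and binding near a gene is no measure of its expression. IGFBP4 (285), MYB (159), TFF3 (129) and BCL2 (107) led the genes on vehicle only, and SLC39A6 (74.7) was the gene on EGF only.

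Genes of the cytosolic ribosome were the list with the highest share on vehicle only. Of 82 genes of the cytosolic ribosome, 24 had peaks of both lists, 24 had vehicle peaks only (29.3%, interval 20.5–39.9%) and 1 had EGF peaks only, against 13.9% and 3.07% of all genes. RPS18 had a lost promoter peak of 533, and RPL13A had a lost peak of 244 within range, 8594 bp from its start. RPL28 was the gene on EGF only (77.9). Of 78 genes of the mitochondrial ribosome, 39 had peaks of both lists, 14 vehicle peaks only and 2 EGF peaks only, and 21 had a kept promoter peak. MRPL34 and MRPL47 had 3100 in both lists, and MRPL51 (170), MRPS9 (166) and MRPL46 (156) were among the genes on vehicle only. MRPS15 (71.0) and MRPS35 (56.2) were on EGF only.

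Olfactory receptor genes, which lie in clusters on many chromosomes, were the list with the highest share on EGF only. Of 390 genes, 47 had EGF peaks only (12.1%, interval 9.18–15.7%), 24 had vehicle peaks only and 23 had peaks of both lists (5.90%). The 47 genes share 31 peaks, and the 24 genes share 17. The highest EGF score was 1229 at OR1K1, whose peak was in fact kept, because the centre of the overlapping vehicle peak lay just out of range. The next were gained peaks at OR2F2 (219), OR2M4 (146) and OR10A4 (138), with GC contents of 28%, 34.5% and 40%. On vehicle only, OR2B2 (744), OR13J1 (315), OR52M1 (150) and OR10G7 (105) had the highest scores, and the peak at OR2B2 is the lost peak given above for H2BC17, which is much closer to it.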

How the data were processed

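ERRα ChIP-seq peak lists of BT-474 cells were analysed, 1 list on vehicle and 1 on EGF. According to the methods and the labels, the authors aligned reads to hg19 (GRCh37) with BWA 0.5.9, used SAMtools 0.1.18 and called peaks with MACS 1.4.1 (mfold 10 and 30, bandwidth 300, P value cutoff 1e-05). The deposited score of each peak is −10 log10 of the P value, with a lowest value of 50 and many ties at 3100, and depends on depth. Scores of both lists are set side by side for kept peaks, and ranks were compared over the same kept sites, a step chosen after seeing the data. Peak tags and library depth were not given in the sources used here. The antibody enrichment, the GC content of the reads and the shared input were not assessed.

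Peaks overlapping by at least 1 bp were called shared. Windows of 200 bp at peak centres were read from GRCh37 and searched for 17 words on both strands, beside flanks 2 kb away. Starts were those of 19794 protein-coding genes of GENCODE 44 lifted to GRCh37. Peaks were assigned to a promoter, coding exon, untranslated exon, intron or intergenic position in this order. The members, lists and words were chosen with earlier results of these data known. Genes were named by rule: the nearest gene of the 5 strongest gained, lost and kept peaks, list members with peaks of 1 list only (at most 6, otherwise the 4 strongest), up to 4 metabolic genes with kept promoter peaks, and ESRRA, TFF1, ERBB2 and EGFR. Genes with many gained peaks and marker genes were named beside this rule, the former after their values were seen, and 1 strong gained peak on chromosome 8, its nearest gene and a few other genes that the rule selects are not reported here. Alternatives changed the overlap rule, score threshold, list size, windows, words and distances. The steps were tested on simulated data, in which 6000 of 6000 peaks, 500 of 500 planted words and 400 of 400 genes were placed as made. Sequences were read with pysam 0.24.0 and samtools 1.23.1, tables were handled in Python 3.11.15 with pandas 2.3.3 and numpy 2.4.6, and intervals and figures were made with scipy 1.17.1 and matplotlib 3.10.9.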

Additional observations from a re-analysis of the deposited data

Results flagged for a closer look

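The number of ERRα peaks moved in opposite directions on EGF in the 2 cell lines, falling from 32259 to 26832 in BT-474 (a change of −16.8%) and rising from 32183 to 32567 in SKBr3 (1.19%). The mean GC content of gained minus lost peaks also had opposite signs on EGF, at −8.73 percentage points in BT-474 and 2.26 in SKBr3. Each BT-474 list rests on 1 ChIP library and each SKBr3 list on pooled libraries, so neither difference was tested.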

How the results depend on the processing

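No paired analysis was possible because each BT-474 group has 1 ChIP library. Of 109 alternative values, 58 stayed within 1.5 times the count or within the interval of the share or mean, and 51 moved beyond. The cause of these moves was not tested. The order gained below kept in GC content, promoter share and ERRE share held under each alternative tried. Depth is unknown, and the weak peaks that make up most gained and lost sites lie near the calling threshold.

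With both lists at score 100 or more, gained peaks numbered 1510 (9.88% of EGF peaks), the lost share was 38.5% and the genes with EGF peaks only numbered 232. At 80 or more they numbered 2270 (12.7%), with a lost share of 38.4%. Requiring score 100 only of the gained or lost peak left 807 gained and 4611 lost peaks. In that setting the promoter share was 1.98% of gained, 8.65% of kept vehicle and 14.8% of lost peaks, the GC content 34.97%, 42.8% and 44.6%, and the ERRE share of lost peaks 4.25%. With the vehicle list reduced to the size of the EGF list, lost peaks numbered 7784 (29.01%) and the gained share was 27.7%. The GC content was then 35.1% for gained, 42.6% for kept and 43.9% for lost peaks, the promoter share 1.92% for gained and 13.5% for lost peaks, and the ERRE share of gained peaks 3.94%.

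The gained and lost shares were 28.7% and 40.7% with an overlap of 50% of both peaks, 33.4% and 44.6% with centres within 500 bp, and 22.6% and 35.6% with peaks up to 1 kb apart shared. A promoter distance of 2.5 kb gave promoter shares of 4.31% (gained), 13.0% (kept) and 17.3% (lost). GC content over 1 kb was 34.8% for gained and 42.2% for kept peaks, over the whole peak 35.4% for gained peaks, and without promoter peaks 41.6% for kept and 41.8% for lost peaks. The word AAGGTCA was in 11.4%, 24.2% and 17.2% of gained, kept and lost peaks, and the ERRE in 10.8%, 18.4% and 11.9% of whole peaks. For AP-1 the word TGANTCA gave 8.71%, 10.0% and 8.89%, and whole peaks 27.2%, 40.9% and 32.4%.

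Leaving out chromosomes 11, 17 and 20, and taking the GC content of gained peaks below score 100 alone (34.4%), were chosen after seeing the data and moved no value beyond these limits.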
